A study of Mus musculus with 12 samples.

Results

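The m6A reader proteins bind RNA that carries N6-methyladenosine (m6A), and 9 genes coding for them were taken from the deposited count table by symbol: Ythdf1, Ythdf2, Ythdf3, Ythdc1, Ythdc2, Igf2bp1, Igf2bp2, Igf2bp3 and Hnrnpa2b1. They are 9 of 24421 genes counted, and all 9 passed the filter on low counts that left 14497 genes for testing. The samples were mouse E14 embryonic stem cells, wild type except that every group expressed dCas_Alkbh5, a Cas protein named together with the m6A-removing enzyme Alkbh5, and grew on gelatin in serum with LIF. Each culture was given 1 µg of a guide RNA plasmid, was selected in 8 µg/mL blasticidin for 3 days and was paused over the next 5 days with 200 nM INK128, which inhibits mTOR. The 4 NT libraries carried the control guide labelled NT-gRNA, and 4 libraries each carried Mycn-gRNA2 or Mycn-gRNA3, so that only the guide differed between groups by the labels. RNA of 200000 cells per sample was given ERCC spike-in RNAs, selected for polyA tails and sequenced. The labels do not say whether replicates were separate cultures, so the p-values reflect library-to-library variation that may be only technical, and there was no unpaused group.

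Methyl groups at the N6 position of adenosine are written onto messenger RNA by the Mettl3 and Mettl14 complex, can be removed by Alkbh5 or Fto, and act through proteins that recognise the mark. The cytoplasmic YTHDF proteins bind m6A with a YTH domain and are tied to decay and translation of marked messages, the nuclear YTHDC1 takes part in splicing, export and silencing of marked RNA, and YTHDC2 is a helicase best known from germ cells. The IGF2BP proteins, which use KH domains and are abundant in embryonic and oncofetal cells, are known for stabilising their targets, and Hnrnpa2b1 is a nuclear RNA-binding protein reported to read the mark in microRNA processing. The comparisons address how the readers' own messages stood in paused cells whose Cas and Alkbh5 protein was guided to Mycn.

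Library sizes ran from 17248564 to 33819855 reads on endogenous genes, with 1.04% to 1.61% of reads on ERCC RNAs. Mycn, the gene named by the guides, had 141 ± 4.17 CPM (mean ± SD, n = 4; CPM are TMM-scaled counts as a rate of the library total) in NT, 236 ± 26.7 under Mycn-gRNA2 and 276 ± 16.7 under Mycn-gRNA3, while Alkbh5 reads, which may come from the cells' own gene or from the transgene, had a log2 fold change of -0.0039 ± 0.057 (SE) for both guides together. Summed levels of 7 embryonic stem cell markers were 3646 to 4088 CPM in NT, 2884 to 3419 with Mycn-gRNA2 and 3316 to 3562 with Mycn-gRNA3, with none at 0. Of these markers 3 were lower with the guides relative to the transcriptome (Nanog, Klf4 and Esrrb) and 4 did not pass the test. Esrrb lost its call in 3 of 12 fits that left out 1 library. Per ERCC read 1 of the 7 markers was higher and 0 were lower, with a median log2 fold change of 0.22 against 0.39 for all tested genes. Of all tested genes 14.9% were higher and 13% lower relative to the transcriptome, and 56.4% higher and 0.931% lower per ERCC read. Markers of other cells also differed on the first of these scales: 4 of 7 primitive endoderm, 3 of 3 tested fibroblast, 3 of 5 neural and 1 of 4 tested mesendoderm markers were higher with the guides, 1 neural marker (Sox1) was lower, and 0 of 3 tested trophoblast markers changed. Of the higher ones, Col3a1, Sox17, Foxa2 and Olig2 were near 0 in NT, with means of 0.0099, 0.15, 0.065 and 0.052 CPM. They could pass the low-count filter only through the guide libraries, so being tested nearly fixed their direction. Sox17 also lost its call in 3 of 12 fits that left out 1 library. The summed fibroblast list stayed at 0.989 to 1.63 CPM in NT, where Postn and Lum were at 0, and at 2.82 to 5.03 CPM with the guides. Summed primitive endoderm markers spanned 275 to 346 CPM in NT and 293 to 366 with the guides. The corresponding ranges were 208 to 255 and 161 to 284 CPM for the neural list, 24.8 to 39.1 and 29.4 to 39.8 for trophoblast, and 5.47 to 13.1 and 7.60 to 13.6 for mesendoderm. The sum over 4 Y-linked genes was 0.0448 to 0.181 CPM in the 4 NT libraries and 32.4 to 83.7 CPM in the 8 guide libraries. In every comparison with NT the guide and this difference between the cells cannot be told apart. Mycn-gRNA2 replicate 1 stood apart from its group: its median absolute deviation from the other 3 over all tested genes was 0.30 on the log2 scale, against 0.12 to 0.18 for those 3.

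In NT cells the readers spanned a wide range of levels per length (RPKM, which is CPM divided by the exon length in kilobases). Hnrnpa2b1 led with 466 ± 34.4 RPKM (SD, n = 4) and stood above 99.3% of tested genes. Igf2bp1 followed with 82.0 ± 3.29 RPKM, then Ythdc1 with 64.7 ± 2.33 and Ythdf1 with 58.1 ± 1.68. Below them came Ythdf3 with 37.7 ± 0.60, Ythdf2 with 30.9 ± 1.30 and Igf2bp3 with 30.7 ± 0.76 RPKM. Igf2bp2 had 20.8 ± 1.63 RPKM. Ythdc2 was the lowest of the 9 with 5.61 ± 0.35 RPKM and the only reader below the median tested gene, which had 6.80 RPKM. Every pair of neighbours in this order was separated in all 4 NT libraries except Ythdf2 and Igf2bp3, whose libraries overlapped. In paused E14 cells the readers were thus mostly high, 8 of 9 above the median gene, and Ythdf1, Ythdc1 and Igf2bp1 held the largest share of the summed level per length of their families.

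**Figure D1:**
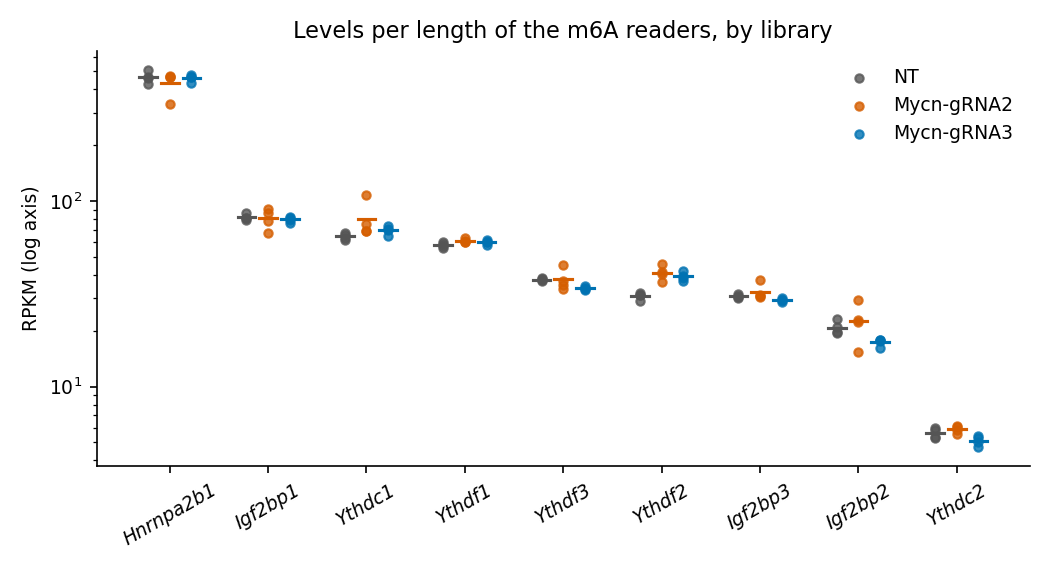
Level per length of each m6A reader in RPKM (log axis), ordered by the NT mean. Each point is a library and each short line the mean of 4 libraries, and the plot shows Hnrnpa2b1 at 466 RPKM and Ythdc2 at 5.61 RPKM in NT, with Ythdf2 as the only gene whose 8 guide libraries all lay above the 4 NT libraries.

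Ythdf2, the reader that recruits the CCR4-NOT deadenylase to marked messages, was the only one of the 9 that changed relative to the transcriptome. It lies on chromosome 4 of mm10 (chr4:132184916-132212256, minus strand). Its level was 127, 127, 119 and 131 CPM in the 4 NT libraries, 186, 149, 169 and 164 CPM with Mycn-gRNA2, and 151, 161, 171 and 157 CPM with Mycn-gRNA3. All 8 guide libraries were above all 4 NT libraries, and the libraries of the 2 guides overlapped. Both guides together gave 0.38 ± 0.062 (log2 fold change ± SE, edgeR adjusted p = 0.000652), which is 1.30-fold. It was 0.41 ± 0.070 with Mycn-gRNA2 (edgeR adjusted p = 0.00158) and 0.34 ± 0.070 with Mycn-gRNA3 (edgeR adjusted p = 0.00306). From replicates 1 and 2 alone the value was 0.35, with an edgeR adjusted p of 0.210. Of all tested genes 14.9% were higher and 13% lower with both guides, so 1 higher and 0 lower of 9 readers is not above that background. The members' median log2 fold change was -0.03 and that of all tested genes -0.0027. A share of 8.55% of tested genes also had all 8 guide libraries above NT in CPM.

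With Mycn-gRNA2 alone 1 of 9 readers was higher (background 10.1% higher, 7.06% lower), and with Mycn-gRNA3 alone again 1 of 9, Ythdf2 each time (background 14.8% higher, 12.2% lower). Some reads of Ythdf2 are uncertain in their origin: 8.36% of the 50-base words in its annotated transcripts also occur in transcripts of other genes, mostly Gm6823 and Gm8401. The labels name a directional kit but not the strand setting of the counting. On mm10 the annotated spans of the other readers printed here are chr2:180904377-180920936 (minus strand) for Ythdf1, chr3:16183183-16217037 (plus) for Ythdf3, chr5:86804490-86836657 (plus) for Ythdc1, chr11:95957164-96005944 (minus) for Igf2bp1, chr16:22059009-22163299 (minus) for Igf2bp2, chr6:49085218-49214954 (minus) for Igf2bp3 and chr6:51460435-51469894 (minus) for Hnrnpa2b1. No other gene of the count table overlaps the exons of a reader except Mir3063 within Igf2bp1, which had 0 reads.

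To show the start of the reader that changed beside the starts of 2 readers that hold an E-box, the 250 bases before the annotated start are printed for Ythdf2, Ythdf1 and Igf2bp3. An E-box, here the letters CACGTG, is a motif to which Myc family proteins are known to bind, and it is written in capitals. The sequences come from RefSeq on build GRCm38.p6 and read 5′ to 3′ on the gene's strand, which is the minus strand for all 3.
Ythdf2 (chr4:132212257-132212506): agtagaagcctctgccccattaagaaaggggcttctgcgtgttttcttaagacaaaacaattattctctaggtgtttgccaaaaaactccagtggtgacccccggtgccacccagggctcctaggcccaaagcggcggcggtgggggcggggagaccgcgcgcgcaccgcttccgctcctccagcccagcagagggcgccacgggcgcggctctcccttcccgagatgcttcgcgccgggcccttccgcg
Ythdf1 (chr2:180920937-180921186): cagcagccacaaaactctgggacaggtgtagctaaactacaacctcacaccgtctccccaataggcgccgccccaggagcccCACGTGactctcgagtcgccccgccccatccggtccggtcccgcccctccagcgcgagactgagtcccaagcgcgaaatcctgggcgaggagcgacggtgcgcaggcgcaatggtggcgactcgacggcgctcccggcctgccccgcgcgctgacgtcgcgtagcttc
Igf2bp3 (chr6:49214955-49215204): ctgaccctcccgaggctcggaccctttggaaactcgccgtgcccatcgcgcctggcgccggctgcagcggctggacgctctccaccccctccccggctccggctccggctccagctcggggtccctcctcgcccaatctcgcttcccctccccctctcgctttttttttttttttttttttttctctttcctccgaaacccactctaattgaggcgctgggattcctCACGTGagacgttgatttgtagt
Searched from 250 bases before to 50 after the start, the window of Ythdf2 held 0 matches, that of Ythdf1 1 match beginning 168 bases upstream, and that of Igf2bp3 2 matches, beginning 23 bases upstream and at base 6 downstream. Promoters were present for 6 of the 9 readers, and the windows of Ythdc1, Igf2bp2 and Hnrnpa2b1 held 0 matches. CACGTG equals its own reverse complement, so 1 search covers both strands, and 7.15% of 32851 promoters of the same length held it. The search describes letters within these windows and says nothing of binding.

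Ythdf1, the paralog best known for promoting translation of marked messages, stayed close to its NT level. It had 183, 186, 178 and 191 CPM in NT, 191, 194, 200 and 192 CPM with Mycn-gRNA2, and 183, 190, 195 and 192 CPM with Mycn-gRNA3. All 4 Mycn-gRNA2 libraries were above NT, the closest by a small margin, which 10.1% of tested genes also showed, while the Mycn-gRNA3 libraries overlapped NT. Both guides together had a log2 fold change of 0.06 ± 0.044 (edgeR adjusted p = 0.333).

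Ythdf3, which works together with both paralogs, had 198, 197, 201 and 205 CPM in NT, 239, 188, 198 and 178 CPM with Mycn-gRNA2, and 185, 176, 179 and 181 CPM with Mycn-gRNA3. The 4 Mycn-gRNA3 libraries lay below all NT libraries, as they did for 18.5% of tested genes, and the Mycn-gRNA2 libraries lay on both sides. With Mycn-gRNA3 the log2 fold change was -0.15 ± 0.077 (edgeR adjusted p = 0.154). The spread that this test used was shared with the Mycn-gRNA2 libraries. Fitted with NT and Mycn-gRNA3 only, Ythdf3 had -0.15 ± 0.043 and passed the test (edgeR adjusted p = 0.0116), and without Mycn-gRNA2 replicate 1 it had -0.15 ± 0.046 with Mycn-gRNA3 (edgeR adjusted p = 0.0146) and -0.12 ± 0.041 for both guides together (edgeR adjusted p = 0.0248). Ythdf3 stayed uncalled in 18 of 20 alternative fits with Mycn-gRNA3 and in 18 of 19 for both guides.

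The 3 YTHDF paralogs together summed to 127 ± 3.15 RPKM in NT, 140 ± 8.11 under Mycn-gRNA2 and 133 ± 3.07 under Mycn-gRNA3. Within this sum the share of Ythdf2 was 24.4% ± 0.51 (SD, n = 4 here and below) in NT. It was 29.2% ± 1.22 under Mycn-gRNA2 and 29.5% ± 0.91 under Mycn-gRNA3. The highest NT library had 24.8% and the lowest guide library 27.5%, so the groups did not overlap. Ythdf3 made up 29.8% ± 0.69 in NT, 26.9% ± 2.07 under Mycn-gRNA2 and 25.5% ± 1.02 under Mycn-gRNA3. Ythdf1 remained the largest share in every group, with 45.9% ± 0.28, 43.8% ± 2.67 and 45.1% ± 0.36. Ythdf2 per length stood below Ythdf3 in all 4 NT libraries, at a ratio of 0.820 ± 0.035, and above it in all 8 guide libraries, at 1.09 ± 0.085 under Mycn-gRNA2 and 1.16 ± 0.080 under Mycn-gRNA3. Where this ratio crosses 1 depends on the annotated exon lengths, 4078 bases for Ythdf2 and 5313 for Ythdf3. The ratio of Ythdf2 to Ythdf1 went from 0.532 ± 0.010 in NT to 0.669 ± 0.065 under Mycn-gRNA2 and 0.654 ± 0.020 under Mycn-gRNA3. Shares and ratios within a library do not depend on how libraries are scaled, but they draw on the same reads as the Ythdf2 test above and are not separate evidence.

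**Figure D2:**
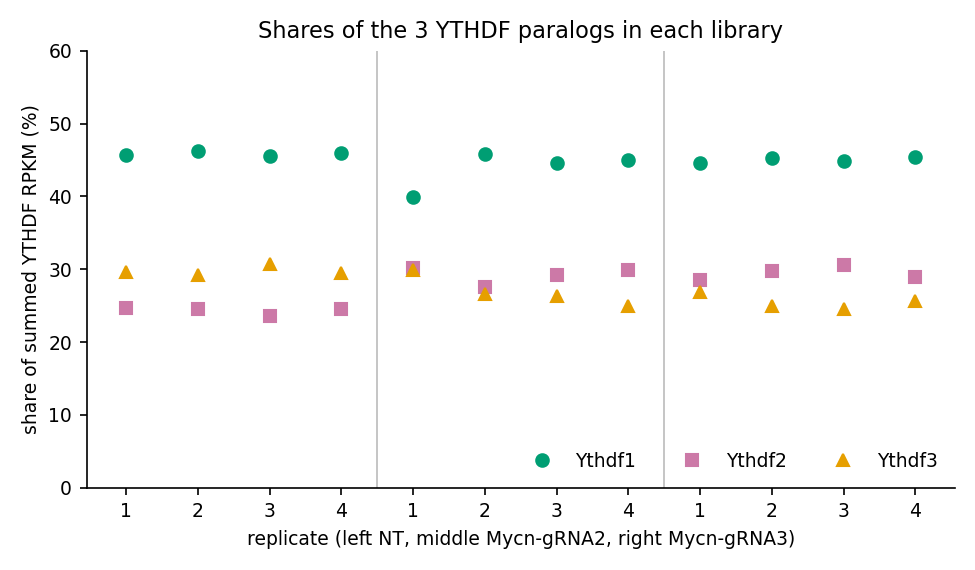
Share of each YTHDF paralog in the summed RPKM of the 3, in percent, for each of the 12 libraries (replicates 1 to 4 of NT, Mycn-gRNA2 and Mycn-gRNA3 from left to right). Ythdf2 lies below Ythdf3 in the 4 NT libraries and above it in the 8 guide libraries, closely so in Mycn-gRNA2 replicate 1, and Ythdf1 is the largest share throughout.

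Ythdc1, the nuclear YTH protein, had 188, 193, 200 and 204 CPM in NT, 328, 211, 229 and 209 CPM with Mycn-gRNA2, and 197, 223, 211 and 215 CPM with Mycn-gRNA3. All 4 Mycn-gRNA2 libraries exceeded NT, replicate 1 by far the most, and 3 of 4 Mycn-gRNA3 libraries did. Of all tested genes 10.1% had all 4 Mycn-gRNA2 libraries above NT. Its log2 fold change was 0.31 ± 0.12 with Mycn-gRNA2 (edgeR adjusted p = 0.0828), 0.11 ± 0.12 with Mycn-gRNA3 (edgeR adjusted p = 0.525) and 0.21 ± 0.10 for both together (edgeR adjusted p = 0.145). Without Mycn-gRNA2 replicate 1 the value for Mycn-gRNA2 was 0.14 ± 0.057 and did not pass the test (edgeR adjusted p = 0.0821), while that for both guides, 0.12 ± 0.047, did (edgeR adjusted p = 0.0477). Without Mycn-gRNA2 replicate 2 the value for Mycn-gRNA2 was 0.38 ± 0.12 and passed (edgeR adjusted p = 0.0443). Ythdc1 stayed uncalled in 19 of 20 alternative fits with Mycn-gRNA2 and in 18 of 19 for both guides. For Ythdc1 17.5% of 50-base words are shared with Gm43055, a locus annotated separately, so part of its reads is uncertain in origin.

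Ythdc2, the helicase of the family, had 33.3, 33.6, 36.8 and 37.6 CPM in NT, 38.3, 38.4, 36.7 and 35.1 CPM with Mycn-gRNA2, and 29.7, 33.1, 31.6 and 34.1 CPM with Mycn-gRNA3. The Mycn-gRNA2 libraries overlapped NT, and 3 of 4 Mycn-gRNA3 libraries were below it. Its log2 fold change was 0.07 ± 0.070 with Mycn-gRNA2 (edgeR adjusted p = 0.536) and -0.14 ± 0.070 with Mycn-gRNA3 (edgeR adjusted p = 0.159). Ythdc1 held 92.0% ± 0.22 of the summed YTHDC level per length in NT, 93.0% ± 1.19 under Mycn-gRNA2 and 93.2% ± 0.19 under Mycn-gRNA3.

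Among the IGF2BP genes, Igf2bp1 had 662, 683, 726 and 677 CPM in NT, 564, 761, 722 and 659 CPM with Mycn-gRNA2, and 685, 638, 663 and 683 CPM with Mycn-gRNA3. The 3 groups overlapped, with both the lowest and the highest library in the Mycn-gRNA2 group, and the log2 fold change for both guides was -0.03 ± 0.070 (edgeR adjusted p = 0.765). Igf2bp1 encodes a protein known for stabilising Myc messages.

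Igf2bp2, known for roles in metabolism and as a target of Hmga2, had 77.0, 76.1, 81.3 and 90.1 CPM in NT, 114, 59.8, 89.2 and 87.0 CPM with Mycn-gRNA2, and 63.3, 69.2, 69.9 and 68.9 CPM with Mycn-gRNA3. The Mycn-gRNA2 libraries ran from below to above all NT libraries. The 4 Mycn-gRNA3 libraries were all below NT, as they were for 18.5% of tested genes. The log2 fold change with Mycn-gRNA3 was -0.26 ± 0.14 and did not pass the test with the spread shared over all groups (edgeR adjusted p = 0.182). With NT and Mycn-gRNA3 only, it was -0.26 ± 0.061 and did (edgeR adjusted p = 0.00459), as it did without Mycn-gRNA2 replicate 2 (-0.26 ± 0.090, edgeR adjusted p = 0.0482) and from replicates 3 and 4 alone (-0.30 ± 0.074, edgeR adjusted p = 0.00258). In the other 17 of 20 alternative fits it did not pass. The 3 fits in which it passed called 2822 of 14298, 1864 of 14642 and 2816 of 14640 genes lower, against 1772 of 14497 in the main fit.

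Igf2bp3, the paralog typical of fetal and tumour cells, had 134, 138, 131 and 132 CPM in NT, 164, 135, 133 and 134 CPM with Mycn-gRNA2, and 127, 125, 128 and 131 CPM with Mycn-gRNA3. Its Mycn-gRNA3 libraries were below NT only narrowly, the highest of them at 130.629 CPM and the lowest NT library at 130.633 CPM. For 18.5% of tested genes all 4 Mycn-gRNA3 libraries were below NT. The log2 fold change was 0.08 ± 0.069 with Mycn-gRNA2 (edgeR adjusted p = 0.466) and -0.07 ± 0.069 with Mycn-gRNA3 (edgeR adjusted p = 0.498). The 3 IGF2BP genes summed to 134 ± 3.29 RPKM in NT, 136 ± 3.44 under Mycn-gRNA2 and 126 ± 2.82 under Mycn-gRNA3, and Igf2bp1 gave 61.4% ± 1.18, 59.4% ± 6.79 and 63.0% ± 0.91 of it.

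Hnrnpa2b1 had 1116, 1107, 1228 and 1027 CPM in NT, 797, 1116, 1129.5 and 1119.8 CPM with Mycn-gRNA2, and 1043, 1126, 1124 and 1153 CPM with Mycn-gRNA3. Apart from the low Mycn-gRNA2 replicate 1, the libraries of all groups overlapped. The log2 fold change for both guides was -0.06 ± 0.086 (edgeR adjusted p = 0.652).

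**Figure D3:**
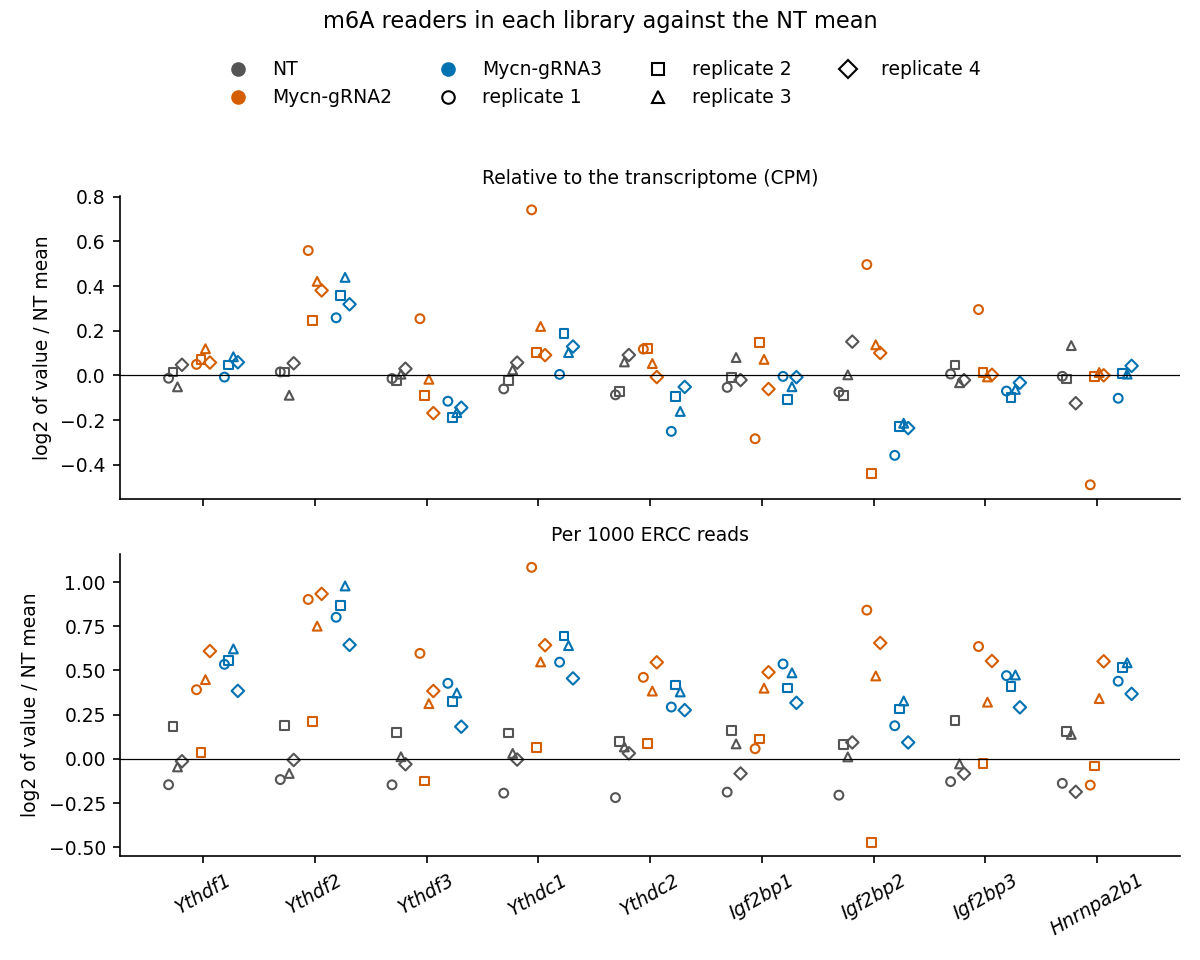
Each library's level of each reader divided by the NT mean, on a log2 scale, from CPM (upper panel) and from reads per 1000 ERCC reads (lower panel). Colours mark groups and symbols mark replicate numbers, and the Ythdf2 points of the guides are the only ones that all lie above NT in both panels.

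The 2 guides were also compared directly. Relative to the transcriptome 0 of 9 readers differed between Mycn-gRNA3 and Mycn-gRNA2 (edgeR), against a background of 0% of tested genes. Before adjustment 2 readers were under 0.05, Igf2bp2 with a log2 fold change of -0.37 ± 0.14 (edgeR adjusted p = 0.549) and Ythdc2 with -0.21 ± 0.070 (edgeR adjusted p = 0.549). DESeq2 called 0 readers and 1 gene of all tested. Ythdf2 had -0.06 ± 0.070 (edgeR adjusted p = 0.751).

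Scaled per ERCC read, where equal cell numbers and added spike-in RNA make the values stand for RNA per cell, most readers were higher with the guides, and so were most genes. For both guides together 8 of 9 readers were higher and 0 lower, beside a background of 56.4% higher and 0.931% lower. The members' median log2 fold change was 0.36 and that of all tested genes 0.39, so a rise of this size was shared with the transcriptome. The ERCC RNAs were added after extraction, so cell counting and RNA yield enter these values, and fewer cells and less RNA per cell cannot be told apart.

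Ythdf2 had 7.60, 9.38, 7.79 and 8.21 reads per 1000 ERCC reads in NT, 15.4, 9.54, 13.9 and 15.7 with Mycn-gRNA2, and 14.4, 15.0, 16.2 and 12.9 with Mycn-gRNA3. All 8 guide libraries again exceeded NT, Mycn-gRNA2 replicate 2 by little, which held for 11.5% of tested genes. The log2 fold change was 0.78 ± 0.13 (edgeR adjusted p = 1.98e-05), or 1.71-fold, the highest of the 9 readers. Ythdc1 had 0.61 ± 0.14 (edgeR adjusted p = 0.000632). Its values per 1000 ERCC reads were 11.2, 14.2, 13.1 and 12.8 in NT, 27.2, 13.4, 18.8 and 20.1 with Mycn-gRNA2, and 18.8, 20.8, 20.02 and 17.6 with Mycn-gRNA3, so that 1 of 8 guide libraries overlapped NT.

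The other readers that passed lay near the median gene: Ythdf1 at 0.46 ± 0.12, Igf2bp3 at 0.40 ± 0.13, Ythdc2 at 0.36 ± 0.13, Igf2bp1 at 0.36 ± 0.12, Hnrnpa2b1 at 0.34 ± 0.13 and Ythdf3 at 0.32 ± 0.13 on the log2 scale. Igf2bp2, at 0.34 ± 0.16, did not pass (edgeR adjusted p = 0.0728). Without NT replicate 1 or NT replicate 4 the count of readers called fell to 4 of 9. The number of all tested genes called higher also fell, from 8177 of 14497 to 5479 of 14642 and 5838 of 14633. For Ythdf3 and Igf2bp2 with Mycn-gRNA3 the sign of the estimate differed between the scales. Relative to the transcriptome their log2 fold changes were -0.15 (edgeR adjusted p = 0.154) and -0.26 (edgeR adjusted p = 0.182). Per ERCC read they were 0.33 ± 0.14 (edgeR adjusted p = 0.0473) and 0.23 ± 0.18 (edgeR adjusted p = 0.283). Only Ythdf3 per ERCC read passed, a call lost in 11 of 20 alternative fits.

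With Mycn-gRNA2 alone 4 of 9 readers were higher per ERCC read (Ythdf1, Ythdf2, Ythdc1 and Igf2bp3), and 0 lower, beside 26.3% higher and 0.517% lower of tested genes and an all-gene median of 0.31. That count was 2, Ythdf2 and Ythdc1, without NT replicate 1, 3 or 4, Mycn-gRNA2 replicate 3 or 4 or Mycn-gRNA3 replicate 1, 2 or 3, and 8 without Mycn-gRNA2 replicate 2. Over all tested genes the number higher moved too. It was 3817 of 14497 in the main fit and 7849 of 14642 without Mycn-gRNA2 replicate 2. Without NT replicate 1, 3 or 4 or Mycn-gRNA2 replicate 3 or 4 it was 1813 to 2491. With Mycn-gRNA3 alone 8 of 9 were higher, all but Igf2bp2, and 0 lower, beside 60.7% higher and 0.504% lower of tested genes and a median of 0.48. Without NT replicate 1 or NT replicate 4 it was 5 of 9, while all tested genes higher went from 8794 of 14497 to 6767 of 14642 and 7096 of 14633. Per ERCC read 0 of 9 differed between the guides (edgeR), beside 0.0069% of tested genes, and at an unadjusted p under 0.05 the count was also 0. The larger number with Mycn-gRNA3 was therefore not matched by a difference between the guides that passed the test.

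**Figure D4:**
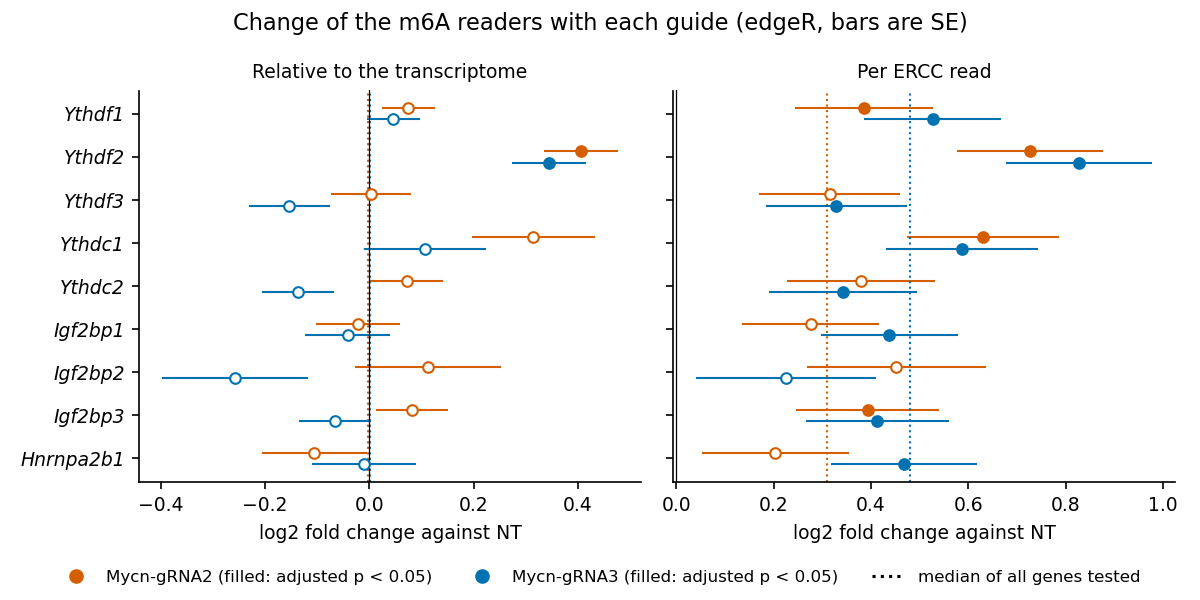
Log2 fold change of each reader against NT with its SE, relative to the transcriptome (left) and per ERCC read (right), with filled points for edgeR adjusted p under 0.05 and dotted lines for the median of all tested genes. On the left only Ythdf2 is filled, at 0.41 and 0.34, and on the right most readers lie near the dotted medians of 0.31 and 0.48.

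The 9 readers also differed in how evenly replicates behaved, and Mycn-gRNA2 replicate 1 stood far from its group for several of them. Against the mean of the other 3 libraries of its group this library was higher for Ythdc1 by 0.60, Igf2bp2 by 0.56, Ythdf3 by 0.35, Igf2bp3 by 0.29 and Ythdf2 by 0.21 on the log2 CPM scale. It was lower for Hnrnpa2b1 (-0.49) and Igf2bp1 (-0.34), and close to the others for Ythdc2 (0.06) and Ythdf1 (-0.03). Igf2bp2 was further low in Mycn-gRNA2 replicate 2 (-0.68). Fitted without replicate 1, the log2 fold changes with Mycn-gRNA2 relative to the transcriptome were 0.35 for Ythdf2, the only one of the 9 called (edgeR adjusted p = 0.000725), 0.14 for Ythdc1 and 0.08 for Ythdf1. Those of Igf2bp1 and Ythdc2 were 0.05 each, those of Igf2bp3 and Hnrnpa2b1 0.0021 and 0.0023, and those of Igf2bp2 and Ythdf3 -0.04 and -0.09. The Ythdf2 call for both guides held in all 12 fits that left out 1 library, with log2 fold changes from 0.35 to 0.40.

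**Figure D5:**
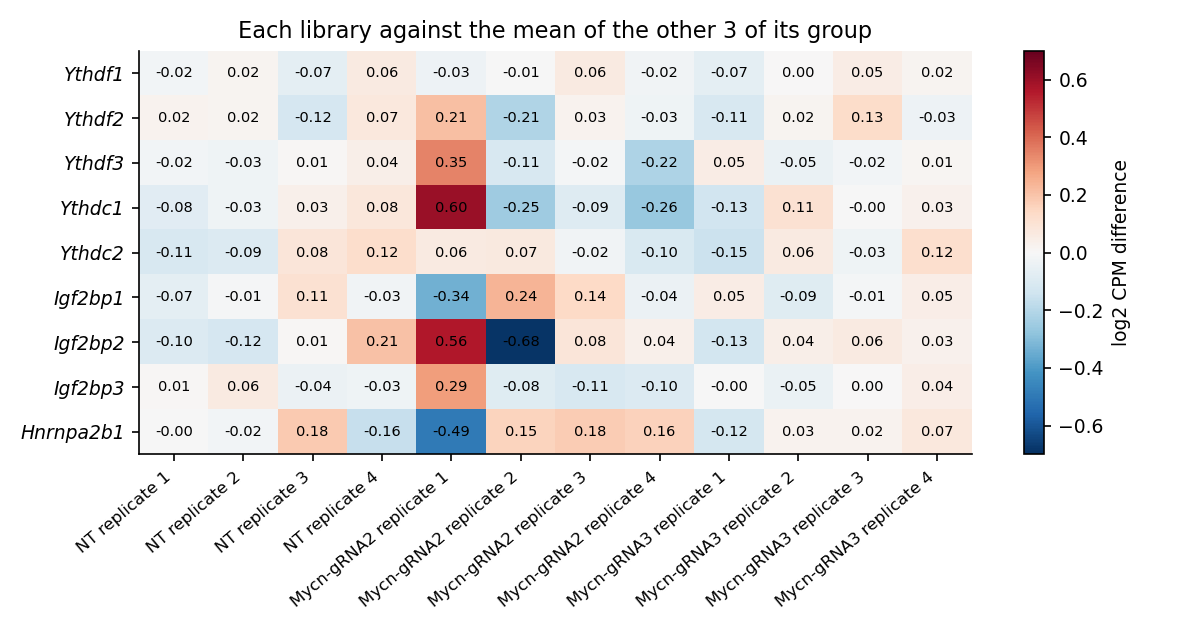
Difference in log2 CPM between each library and the mean of the other 3 of its group, for each reader, with the value printed in each cell. Mycn-gRNA2 replicate 1 runs from -0.49 for Hnrnpa2b1 to 0.60 for Ythdc1, Igf2bp2 in Mycn-gRNA2 replicate 2 is at -0.68, and Ythdf1 runs from -0.07 to 0.06 over the 12 libraries.

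Deviations from the group means moved together for some readers across the 12 libraries, among them the 1 library that stood apart, which enters every value. As examples, Ythdf3 and Ythdc1 had a Pearson r of 0.90 and Ythdc1 and Igf2bp3 0.86, while Ythdc1 and Hnrnpa2b1 had -0.80 and Ythdf2 and Igf2bp1 -0.81. Other pairs were as strong, such as Ythdf3 and Igf2bp3 (0.86) and Igf2bp3 and Hnrnpa2b1 (-0.86), and some were near 0, such as Ythdc2 and Igf2bp1 (0.02). The values were not set against pairs of other genes, so they do not show a relation particular to the readers. These are descriptions over 12 libraries. The genes whose log2 CPM was most like that of Ythdf2 over the 12 libraries, out of 9380 searched, were Mrpl46, which encodes a mitochondrial ribosomal protein (r = 0.988), Usp10, a deubiquitinase (r = 0.988), and Phax, an export adaptor for small nuclear RNA (r = 0.984). Their log2 fold changes for both guides were 0.59 ± 0.081, 0.27 ± 0.055 and 0.46 ± 0.059.

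Among the enzymes that write and erase m6A, 2 of 11 tested genes were higher and 0 lower with both guides relative to the transcriptome, with a list median of 0.02 on the log2 scale. Over all tested genes 14.9% were higher and 13% lower, with a median of -0.0027. Rbm15, an adaptor of the writer complex, rose from 60.2 ± 2.26 CPM in NT to 88.9 ± 8.14 under Mycn-gRNA2 and 96.9 ± 6.18 under Mycn-gRNA3 (log2 fold change 0.62 ± 0.065, edgeR adjusted p = 2.08e-05). Virma, a scaffold of the same complex counted under the symbol 1110037F02Rik, had 0.15 ± 0.054 (edgeR adjusted p = 0.0490), a call lost in 9 of 12 fits that left out 1 library.

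Of 23 partners of YTHDF2 in deadenylation and decay, 1 was higher, 5 were lower and 17 did not pass, beside 14.9% higher and 13% lower of all tested genes, with a median of -0.09. Pop1, a subunit of RNase P and MRP, which cut RNA bound by YTHDF2, rose from 55.3 ± 3.48 CPM in NT to 87.2 ± 10.9 under Mycn-gRNA2 and 87.1 ± 7.43 under Mycn-gRNA3 (log2 fold change 0.66 ± 0.083, edgeR adjusted p = 8.26e-05). The CCR4-NOT scaffold Cnot1 fell, from 978 ± 30.1 CPM to 859 ± 39.5 and 793 ± 14.4 (-0.25 ± 0.047, edgeR adjusted p = 0.00169). The deadenylases Cnot7 (-0.25 ± 0.047, edgeR adjusted p = 0.00170) and Cnot6 (-0.28 ± 0.064, edgeR adjusted p = 0.00590) fell too. Per ERCC read, where the median of all tested genes was 0.39, 13 of the 23 were higher and 0 lower, beside 56.4% higher of all tested genes, so these falls were relative to the transcriptome only. Without Mycn-gRNA2 replicate 1 the counts relative to the transcriptome were 2 higher and 8 lower of 23. Calls over all tested genes grew as well, from 2156 higher and 1878 lower of 14497 to 3206 higher and 2951 lower of 14631.

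Of 10 partners of YTHDC1 and YTHDC2, beside the same shares over all tested genes, 0 were higher and 1 was lower, the splicing factor Srsf7 (-0.25 ± 0.079, edgeR adjusted p = 0.0304), a call lost in 4 of 12 fits that left out 1 library. Beside the IGF2BP genes, 5 of 11 oncofetal genes and let-7 targets were higher and 1 was lower, beside 14.9% higher and 13% lower of all tested genes, with a median of 0.05. Lin28b, which blocks maturation of let-7 microRNA, rose from 34.6 ± 4.21 CPM to 56.1 ± 3.39 and 51.2 ± 3.22 (0.63 ± 0.078, edgeR adjusted p = 7.01e-05). Nr6a1, an orphan nuclear receptor of early development, had 0.33 ± 0.058 (edgeR adjusted p = 0.00111), and the growth factor gene Igf2 had 1.02 ± 0.19 (edgeR adjusted p = 0.00156), from 3.77 ± 0.48 CPM to 7.71 ± 1.67 and 7.53 ± 2.34. Dis3l2, an exonuclease that degrades uridylated let-7 precursors, fell by 0.25 ± 0.054 on the log2 scale (edgeR adjusted p = 0.00364).

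Of 13 other proteins reported to bind m6A RNA, 0 were higher and 3 lower, beside 14.9% higher and 13% lower of all tested genes, with a median of -0.06: Fmr1 (-0.24 ± 0.050, edgeR adjusted p = 0.00293), its paralog Fxr1 (-0.21 ± 0.057, edgeR adjusted p = 0.0141) and Rbmx, the gene of hnRNP G (-0.30 ± 0.082, edgeR adjusted p = 0.0153). Without NT replicate 3, Fxr1 (edgeR adjusted p = 0.0582) and Rbmx (edgeR adjusted p = 0.0711) lost their calls, which left 1 of 13. Of 23 hnRNP genes beside Hnrnpa2b1, 0 were higher and 5 lower, beside the same shares over all tested genes, with a median of -0.08. Hnrnpul2 (-0.29 ± 0.049, edgeR adjusted p = 0.000735), Hnrnph2 (-0.21 ± 0.055, edgeR adjusted p = 0.0112) and Hnrnpul1 (-0.17 ± 0.049, edgeR adjusted p = 0.0169) fell, and Hnrnpul1 lost its call in 2 of 12 fits that left out 1 library, Hnrnpul2 and Hnrnph2 in 0 of 12. Hnrnpa1, the closest relative of Hnrnpa2b1, had -0.22 ± 0.074 (edgeR adjusted p = 0.0385), a call lost in 9 of 12 such fits. Without Mycn-gRNA2 replicate 1 the number of hnRNP genes called was 10 of 23, with 2 higher and 8 lower. That fit called 3206 higher and 2951 lower of all 14631 genes tested, so its background was larger too. Per ERCC read 10 of 11 writers and erasers, 7 of 10 nuclear partners, 7 of 11 oncofetal genes, 9 of 13 other binders and 13 of 23 hnRNP genes were higher, and 0 were lower in each list, where 56.4% of all tested genes were higher and 0.931% lower.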

How the data were processed

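The deposited count table holds raw read counts per gene for 24421 genes and 92 ERCC RNAs in 12 libraries. Per the submitters' processing notes the authors used Trim Galore 0.4.0, featureCounts of Subread 1.5.0 and edgeR 3.32.1 with build mm10. The sources used here do not give the aligner, annotation or strand setting. The deposited log2 table covers 12042 genes and was the log2 of the count plus 0.5, shifted by 1 constant in each library, to within 5.1e-14. It entered only an alternative test.

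Groups came from the sample titles. The test was the robust quasi-likelihood F test of edgeR 4.0.16 in R 4.3.3 on all 12 libraries, with the group as the sole factor. The filterByExpr rule kept 14497 genes, and p-values were adjusted over them by Benjamini-Hochberg, with calls under 0.05. Levels relative to the transcriptome used TMM factors over endogenous genes, and levels per ERCC read used the ERCC totals as library sizes. RPKM used the gene lengths given with the deposited counts. The 50-base words came from GENCODE M21 transcripts. The fit was tested on simulated data. Counts of replicates within a group differed by more than sampling noise (chi-square per degree of freedom 8.57 to 72.8), so no pair was treated as duplicate deposits. This does not show that replicates are separate cultures. The members and the gene lists were chosen with earlier results of these data known.

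All 9 readers are named. From each other list up to 4 called genes with the lowest adjusted p for both guides against NT are named, with Mycn and Alkbh5 as a check of the labels and the 3 genes most correlated with each called reader (prior count 2, mean log2 CPM of at least 3). Markers named in the account of the cells, and Gm6823, Gm8401, Gm43055 and Mir3063, fall outside this rule. Of 12 writer and eraser symbols 11 were counted, Hakai being an alias of Cbll1.

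Replicate numbers are shared by the groups. Deviations from the group means of same-numbered libraries correlated at 0.175 to 0.641 between the 2 guides. Those of different-numbered libraries correlated at -0.644 to 0.471. The ranges overlap and no batch was stated, so the values do not settle whether the numbers pair the samples there. A block on the number left 0 of 9 readers called between the guides on either scale. Alternatives were RLE or upper quartile factors, DESeq2 1.42.0, TMM over ERCC RNAs, the deposited log2 values with limma 3.58.1, no filter on low counts, only the groups compared, the replicate block, each library left out, and replicates 1 and 2 or 3 and 4 alone.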

Additional observations from a re-analysis of the deposited data

Results flagged for a closer look

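In 4 of 54 groups of 4 libraries 1 library lay further from the rest than Dixon's 95% limit for the gap over the range allows. Chance alone marks about 1 in 20 groups. Of the 4, 3 were in Mycn-gRNA2 replicate 1: Ythdc1 at 328 CPM, Igf2bp3 at 164 CPM and Hnrnpa2b1 at 797 CPM. The remaining one was Igf2bp2 at 63.3 CPM in Mycn-gRNA3 replicate 1, the lowest of its group.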

How the results depend on the processing

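The 72 log2 fold changes of single readers (9 genes, 4 comparisons, 2 scales) had 1422 values under alternatives, of which 1316 kept their call, 83 lost it, 23 gained it and 0 reversed a called direction. Ythdf2 relative to the transcriptome kept its call in 18 of 19 alternatives for both guides and in 19 of 20 for each guide, and per ERCC read in 19 of 19 for both guides. Replicates 1 and 2 alone gave 0 readers called relative to the transcriptome in each comparison with NT, and per ERCC read 2 for both guides, 0 for Mycn-gRNA2 and 1 for Mycn-gRNA3. Replicates 3 and 4 alone gave 2 for Mycn-gRNA3 relative to the transcriptome (Ythdf2 higher, Igf2bp2 lower). That fit called 3139 higher and 2816 lower of 14640 genes, so 2 of 9 readers is not above its background. Per ERCC read replicates 3 and 4 gave 9 for Mycn-gRNA2, all higher. With only the groups compared, the counts were 3 for Mycn-gRNA3 relative to the transcriptome and 2 for Mycn-gRNA2 per ERCC read. The latter fit called 2854 higher and 64 lower of 14155 genes. Leaving out 1 library gave 1 to 3 readers relative to the transcriptome for both guides, 1 to 2 for Mycn-gRNA2, 1 to 2 for Mycn-gRNA3 and 0 between the guides. Per ERCC read it gave 4 to 9 for both guides, 2 to 8 for Mycn-gRNA2, 5 to 8 for Mycn-gRNA3 and 0 between the guides. Deviations of same-numbered NT and guide libraries correlated at -0.08 to 0.36 with Mycn-gRNA2 and at 0.06 to 0.29 with Mycn-gRNA3. For different-numbered libraries the ranges were -0.51 to 0.35 and -0.44 to 0.26. The ranges overlap, so the values do not settle whether the numbers pair NT with guide libraries. With a replicate block 1 reader was called in each comparison with NT relative to the transcriptome, and 6, 2 and 6 per ERCC read for both guides, Mycn-gRNA2 and Mycn-gRNA3. Beside these 6, 2 and 6, all higher, the block fit per ERCC read called 7393, 3129 and 8212 of 14497 genes higher. Apart from fewer samples in some fits, the cause was not tested.

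For the lists, both guides against NT relative to the transcriptome, replicates 1 and 2 alone called 1 of the writers and erasers and 0 of every other list. Replicates 3 and 4 alone called 11 decay partners, 3 nuclear partners and 5 other binders. The writers and erasers had 1 called without a filter and 1 with the replicate block, the nuclear partners 3 with DESeq2, and the hnRNP genes 3 with upper quartile factors. Leaving out 1 library gave 1 to 4 writers and erasers, 5 to 10 decay partners, 0 to 4 nuclear partners, 6 oncofetal genes, 1 to 4 other binders and 2 to 10 hnRNP genes. Over all tested genes 2156 were higher and 1878 lower for both guides relative to the transcriptome, against 3206 and 2951 without Mycn-gRNA2 replicate 1, 151 and 27 from replicates 1 and 2, and 3324 and 3061 from replicates 3 and 4. For Mycn-gRNA2, 1462 higher and 1023 lower became 971 and 578 with only the groups compared, and for Mycn-gRNA3, 2147 and 1772 became 3218 and 2822. Per ERCC read 8177 and 135 for both guides became 1101 and 12 from replicates 1 and 2, and for Mycn-gRNA2 3817 and 75 became 8080 and 120 from replicates 3 and 4.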
